A study of Mus musculus with 12 samples.

Results

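Heterozygotes for the AIRE missense change C442G were compared with their own wild types by the positions of accessible chromatin in mature medullary thymic epithelial cells, called mTEChi in the labels. Of the 12 libraries of the series, 4 belonged to this comparison and were taken by title: 2 from Aire +/C442G mice and 2 from Aire +/+ mice. All 4 came from C57BL/6 mice of 4 to 7 weeks, and the heterozygotes still carried 1 wild-type allele. The tissue was digested with DNase and Liberase TH, an enzyme blend, before cell sorting, and nucleosome-free chromatin was profiled by ATAC-seq, in which a transposase cuts open DNA. The labels gave no sex and no number of mice per library, so the spread between libraries of 1 genotype may be technical.

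AIRE, the autoimmune regulator, is a chromatin-associated protein of these cells. It promotes transcription of many genes that are otherwise restricted to peripheral tissues, so that developing T cells meet the products and self-reactive cells can be removed. AIRE carries zinc-binding plant homeodomain fingers, and the C442G change exchanges a cysteine for a glycine in the second of them. AIRE acts largely after polymerase recruitment, on promoters that lack the features of constitutive genes. How accessibility differed between heterozygotes and wild types was therefore asked region by region and gene by gene.

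The measurement was 1 list of broad peaks per library, with a fold enrichment and a −log10 p for each peak as the authors' caller gave them. Overlapping peaks of the 4 lists on chromosomes 1 to 19 were joined into regions, with 1 shared bp sufficing. A region present in both heterozygote libraries and absent from both wild-type libraries was gained, and the opposite pattern was lost. Protein-coding genes were called the same way from peaks within 1 kb of either annotated gene end. Each call was made with all peaks and again with the 90000 peaks of highest −log10 p in each list, and calls made both ways are named as such. The fold and rank of a peak were used within its own list, and the absence of a peak means that none was called at an unknown depth. A single region or gene cannot be tested with 2 libraries per genotype.

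The promoters below show gained and lost regions at annotated starts. Each is the 300-base window of RefSeq (GRCm38.p6, the assembly of mm10) from 250 bases before the start to 50 after it, printed along the gene's own strand. Capitals mark a TATA box (TATAAA) or a GC box (GGGCGG), on either strand. The first 3 were the highest-ranked gained genes that held a region gained with both list lengths and had a heterozygote peak over the window. They were Gm5174 (chr10:86655556-86655855, plus strand), Crisp1 (chr17:40319158-40319457, minus strand) and Pabpn1l (chr8:122622686-122622985, minus strand). The other 3, from the lost genes, were Lypd3 (chr7:24636320-24636619, plus strand), Igfbp5 (chr1:72874816-72875115, minus strand) and Draxin (chr4:148130649-148130948, minus strand).
Gm5174: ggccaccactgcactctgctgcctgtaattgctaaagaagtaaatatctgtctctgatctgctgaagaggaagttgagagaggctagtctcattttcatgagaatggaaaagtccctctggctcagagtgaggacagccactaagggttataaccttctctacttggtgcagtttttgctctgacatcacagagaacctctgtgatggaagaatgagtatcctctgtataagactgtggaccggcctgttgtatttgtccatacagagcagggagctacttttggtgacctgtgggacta
Crisp1: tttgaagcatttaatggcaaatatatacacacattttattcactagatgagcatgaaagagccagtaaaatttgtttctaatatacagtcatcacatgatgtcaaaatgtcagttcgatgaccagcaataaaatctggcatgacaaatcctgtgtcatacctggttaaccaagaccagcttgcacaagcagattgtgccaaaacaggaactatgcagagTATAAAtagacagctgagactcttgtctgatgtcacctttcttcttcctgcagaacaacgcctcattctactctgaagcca
Pabpn1l: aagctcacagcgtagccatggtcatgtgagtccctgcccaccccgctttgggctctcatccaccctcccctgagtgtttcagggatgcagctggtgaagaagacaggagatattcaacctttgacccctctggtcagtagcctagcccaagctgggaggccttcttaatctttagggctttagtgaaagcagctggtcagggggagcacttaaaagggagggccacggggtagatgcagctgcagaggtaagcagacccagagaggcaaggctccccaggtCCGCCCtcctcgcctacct
Lypd3: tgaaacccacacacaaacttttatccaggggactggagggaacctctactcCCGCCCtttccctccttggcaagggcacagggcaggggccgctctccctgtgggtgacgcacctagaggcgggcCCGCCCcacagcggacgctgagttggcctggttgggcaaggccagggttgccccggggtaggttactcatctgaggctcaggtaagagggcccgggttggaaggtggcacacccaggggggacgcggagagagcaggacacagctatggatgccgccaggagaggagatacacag
Igfbp5: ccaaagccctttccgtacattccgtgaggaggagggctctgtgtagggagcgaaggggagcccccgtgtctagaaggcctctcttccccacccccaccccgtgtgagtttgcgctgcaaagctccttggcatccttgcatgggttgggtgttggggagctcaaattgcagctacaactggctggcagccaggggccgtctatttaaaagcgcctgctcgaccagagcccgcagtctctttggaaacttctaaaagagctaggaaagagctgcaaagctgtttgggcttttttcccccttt
Draxin: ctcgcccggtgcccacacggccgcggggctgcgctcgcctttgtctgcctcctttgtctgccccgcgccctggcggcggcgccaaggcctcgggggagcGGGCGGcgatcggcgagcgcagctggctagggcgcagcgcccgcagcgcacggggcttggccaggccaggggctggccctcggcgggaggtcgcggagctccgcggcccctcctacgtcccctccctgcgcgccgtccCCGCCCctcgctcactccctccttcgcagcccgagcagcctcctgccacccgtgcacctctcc

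The 3 gained promoters shown were poorer in CpG than the 3 lost ones. The windows of Gm5174, Crisp1 and Pabpn1l held 1, 2 and 5 CpG dinucleotides, and those of Lypd3, Igfbp5 and Draxin 12, 10 and 39. Gm3558, a gained gene of higher rank without a region gained with both list lengths, is not shown. Its window had a heterozygote peak and held 21 CpG dinucleotides and 5 GC boxes, so the contrast did not extend to it. Crisp1, which encodes a secreted protein of the epididymis that coats sperm, was the one of the 6 with TATAAA in its window. Among the 6, the GC box was present in the windows of Pabpn1l, Lypd3 and Draxin. Pabpn1l encodes an embryonic poly(A)-binding protein, Lypd3 a surface protein of keratinocytes, Igfbp5 an insulin-like growth factor binding protein and Draxin a secreted cue that repels growing axons.

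By CpG content the called windows lay between windows open in all 4 libraries and windows open in none. Among 20085 windows of autosomal protein-coding genes, 163 had a peak in both heterozygotes and in neither wild type, and 61 the reverse. The median ratio of observed to expected CpG was 0.484 in the 163 and 0.572 in the 61. It was 0.794 in the 10640 windows with a peak in all 4 libraries and 0.203 in the 7543 with a peak in none. In the 64 windows of the genes gained with both list lengths, whether or not a peak lay over the window, the median was 0.303, and in the 56 of the genes lost with both 0.485. TATAAA was present in 12.3% of the 163 windows, in 14.8% of the 61 and in 12.7% of all 20085. GGGCGG was present in 50.3%, 45.9% and 47.0% of the same sets, but in 26.6% of the 64 windows of genes gained with both lengths and in 42.9% of the 56 of genes lost with both. CCAAT was present in 32.5% and 29.5% of the called windows, against 38.1% of all, 39.2% of those open in all 4 and 38.5% of those open in none. The AP-1 motif TGANTCA was present in 9.82% and 8.20% of the called windows, against 7.06% of all. These shares describe letters in a window, searched on both strands, and no test was made on them.

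Libraries of heterozygotes and wild types differed on the Y chromosome, and this bears on every comparison here. The heterozygote lists held 27 and 23 peaks on chromosome Y, the wild-type lists 4 and 4. The 4 Y-linked genes examined, Kdm5d, Eif2s3y, Uty and Ddx3y, were each called in both heterozygotes and in none of the wild types. At Xist, the X-linked gene whose RNA silences one X chromosome in females, 2 and 1 peaks were called in heterozygotes against 4 and 4 in wild types. Genotype and the Y-linked signal therefore changed together in these 4 libraries, and the contribution of genotype and of sex to any gained or lost region cannot be told apart. The regions and genes counted here were autosomal.

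Genes of thymic epithelium were accessible in both genotypes. Of 12 genes of mTEC identity and antigen presentation, 10 had a peak near a gene end in all 4 libraries, as had 5 of 6 genes of cortical thymic epithelium, so these lists do not separate medullary from cortical cells. The 30 genes for known AIRE partners were accessible in all 4 libraries, as were 20 of 22 autosomal genes of the NF-kB pathway, which drives mTEC maturation. Ciita, the master regulator of MHC class II genes, had no peak near a gene end in any of the 4. Of 12 T cell genes, 3 had a peak in all 4 libraries and 7, among them Cd8a, Rag1 and Lck, in none. B cell genes numbered 4 and 2 of 6 with a peak in heterozygotes and 2 and 2 in wild types. Dendritic cell and macrophage genes with a peak numbered 7 and 6 of 10 in heterozygotes and 7 and 6 in wild types, and endothelial genes 3 and 3 of 8 in both. Fibroblast and mural genes numbered 4 and 6 of 7 in heterozygotes and 5 and 5 in wild types. None of the 6 B cell, 10 dendritic cell and macrophage, 8 endothelial and 12 T cell genes was called with either list length. Of the 7 fibroblast and mural genes Fbn1, a matrix microfibril gene, was lost with equal lengths, as were 0.929% of all genes. Fbn1 nonetheless had a heterozygote peak in both full lists, with folds of 3.18 and 3.28.

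Heterozygote lists were longer than wild-type lists. They held 120031 and 112808 autosomal peaks, against 91851 and 92618 in wild types. Both heterozygote lists were thus longer than both wild-type lists. The means were 116420 ± 5107 in heterozygotes and 92235 ± 542 in wild types (SD, n = 2 each), a 1.26-fold ratio (exact two-sided permutation p = 0.333, the smallest that 2 against 2 allows). Covered length was 29.8 and 28.1 Mb in heterozygotes and 23.2 and 22.8 Mb in wild types, a difference of 0.33 on the log2 scale (exact permutation p = 0.333). The median peak was 175 and 175 bp wide in heterozygotes and 176 and 170 bp in wild types, a log2 difference of 0.02 (exact permutation p = 1). Widths overlapped between genotypes. The median fold enrichment was 4.29 and 4.71 in heterozygote lists and 4.24 and 4.46 in wild-type lists, and these ranges overlapped too.

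Gene ends took a smaller share of the heterozygote lists. Peaks within 1 kb of a gene end made up 14.1% and 14.7% of heterozygote lists, against 16.9% and 17.1% of wild-type lists, a difference of -2.62 percentage points (exact permutation p = 0.333). In lists of 90000 peaks the shares were 16.8% and 16.4% in heterozygotes and 17.0% and 17.3% in wild types, a difference of -0.54 points (exact permutation p = 0.333). Equal length thus left a smaller difference in position, but peaks then differed in width. The median width of the strongest 90000 was 195 and 191 bp in heterozygotes against 176 and 171 bp in wild types, a log2 difference of 0.15 (exact permutation p = 0.333). The weakest peak kept had a −log10 p of 4.07 and 4.35 in heterozygotes and of 3.43 and 3.59 in wild types. Shortening therefore removed weak peaks mostly from the heterozygote lists.

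**Figure D1:**
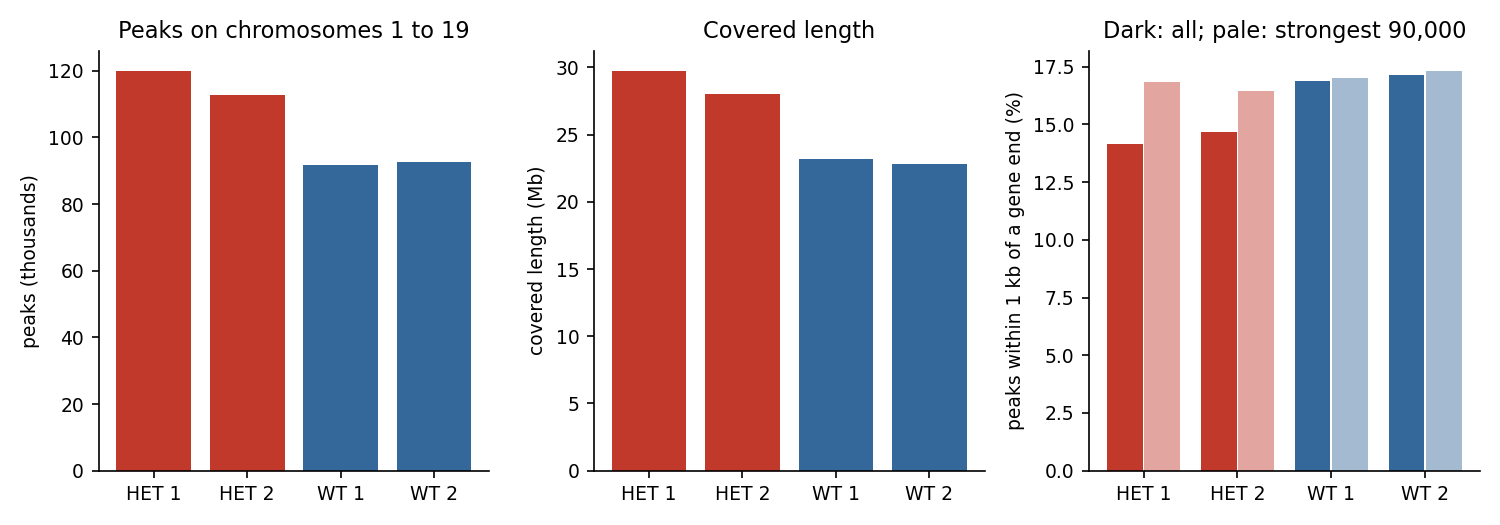
Autosomal peaks in units of 1000, covered length in Mb and the share of peaks within 1 kb of a gene end in % for each of the 2 heterozygote (HET, red) and 2 wild-type (WT, blue) libraries; 1 bar is 1 library. Both heterozygote lists, at 120031 and 112808 peaks, are longer than both wild-type lists, and the shares near gene ends come closer when each list is held to its strongest 90,000 peaks (pale bars).

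Regions were gained more often than lost with either list length, but the ratio depended on the length. With all peaks, 158240 regions were scored, of which 11202 were gained (7.08%) and 1574 lost (0.995%), while 63849 had a peak in all 4 libraries. The gained regions covered 2.43 Mb and the lost ones 0.335 Mb. With the strongest 90000 peaks of each list, 4870 of 130611 regions were gained (3.73%) and 3708 lost (2.84%). The ratio of gained to lost regions was 7.12 with all peaks and 1.31 with lists of equal length. With equal lengths lost regions outnumbered gained ones when wild type 1 (9098 gained, 13822 lost) or wild type 2 (9925 gained, 15318 lost) was left out. Of the regions lost with equal lengths, 62.0% had a weaker heterozygote peak further down the full list, while 4.44% of those gained had such a wild-type peak. Few wild-type peaks lay below the cut, in lists of 91851 and 92618, and many more heterozygote peaks, in lists of 120031 and 112808. These shares therefore cannot be compared, and the low one does not show that gained regions lacked wild-type signal. Both list lengths together called 4654 regions gained (2.94% of the 158240) and 1408 lost (0.89%).

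For genes the order turned with the list length. Of 20665 autosomal protein-coding genes, 185 were gained with all peaks (0.895%) and 60 were lost (0.29%). With the strongest 90000 peaks 80 were gained (0.387%) and 192 lost (0.929%). Both lengths called 70 genes gained (0.339%), which were 37.8% of the longer and 87.5% of the shorter gained list. Both called 57 genes lost (0.276%), which were 95.0% of the genes lost with all peaks and 29.7% of those lost with equal lengths. The cut took few peaks from the wild-type lists of 91851 and 92618, so most genes lost with all peaks had to stay lost. Being called both ways was thus a weaker condition for lost than for gained calls. Genes with any peak numbered 13901 and 13697 in heterozygotes and 13319 and 13542 in wild types, and 13143 and 13030 against 13260 and 13434 in lists of 90000. Genes open in all 4 libraries numbered 12591 and those open in none 5977, so the called genes were a small part of all.

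**Figure D2:**
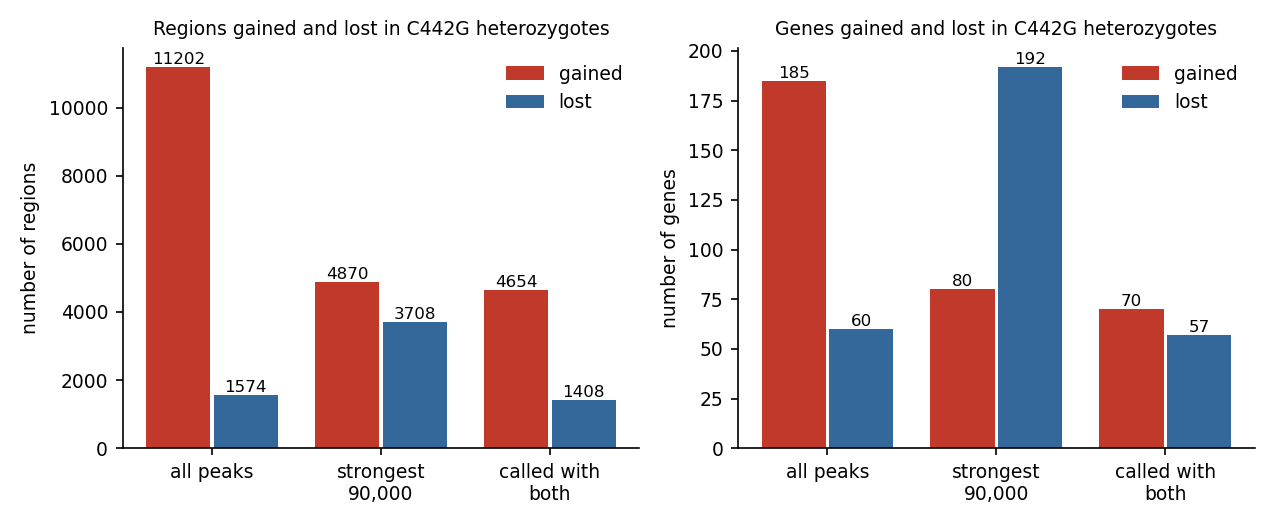
Number of autosomal regions (left) and protein-coding genes (right) called gained (red) or lost (blue) in C442G heterozygotes with all peaks, with the strongest 90,000 of each list and with both; bars are counts. Gained regions outnumber lost ones at each length, whereas gained genes outnumber lost ones with all peaks (185 and 60) and are fewer in lists of equal length (80 and 192).

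Gained and lost regions were narrow, weak and seldom near gene ends, unlike regions shared by all 4 libraries. With all peaks, 4.81% of gained regions lay within 1 kb of a gene end, 54.0% inside genes and 41.2% between them. Lost regions had 8.26%, 47.9% and 43.8% at the same positions, and shared regions 20.9%, 42.0% and 37.1%. The shares moved little with equal lengths, where gene ends took 4.95% of the gained, 9.06% of the lost and 22.0% of the shared class. Distances over 100 kb from any gene end were found for 20.4% of the gained, 14.6% of the lost and 11.5% of the shared class. Median widths were 176 bp for gained, 174 bp for lost and 363 bp for shared regions. The width and peak rank of shared regions are not independent of the rule, because merging joins the peaks of 4 libraries.

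Within their own lists the called peaks ranked low. At gained regions the median peak stood at percentile 29.8 and 27.3 of the 2 heterozygote lists by −log10 p, while peaks at shared regions stood at 72.4 and 70.5. At lost regions the median percentile was 22.2 and 21.3 of the 2 wild-type lists, and at shared regions 64.4 and 64.5. Shared regions lay within 1 kb of 8.91% of gained and 16.3% of lost regions. With all peaks gained regions outnumbered lost ones on every autosome, with gained shares between 6.06% on chromosome 7 and 7.91% on chromosome 1. Counts per chromosome in lists of equal length are not given here.

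**Figure D3:**
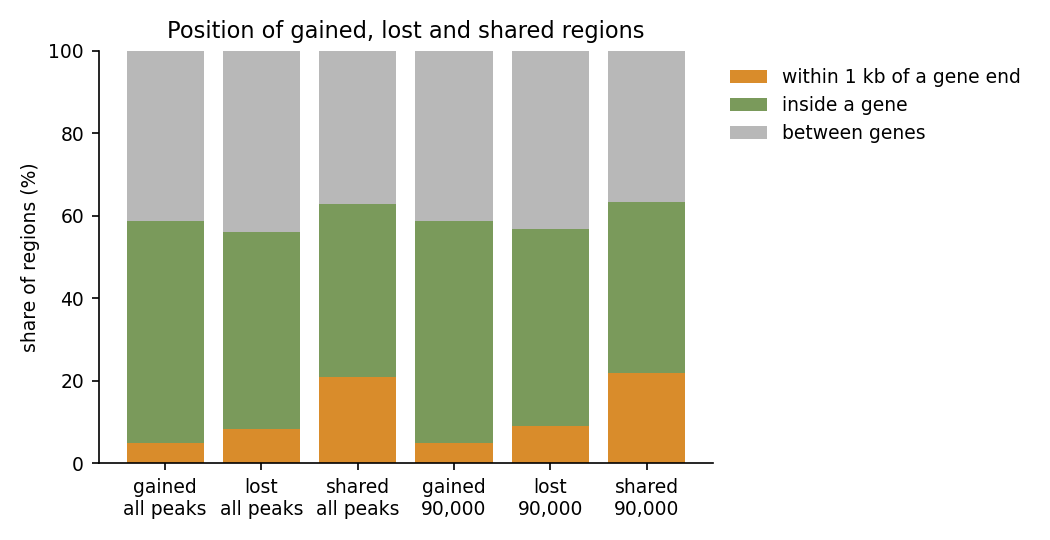
Share of regions in % within 1 kb of a gene end, inside a gene and between genes, for gained, lost and shared regions with all peaks (left 3 bars) and with the strongest 90,000 of each list (right 3 bars). With all peaks the share near gene ends is 4.81% in the gained, 8.26% in the lost and 20.9% in the shared class.

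Of the 5 gained regions of highest rank, 3 lay between genes and 2 inside genes, away from the gene ends. The highest-ranked, at chr12:21625336-21625456, had folds of 8.72 and 10.9 in heterozygotes and lay 132676 bp from the nearest gene end, of Gm46305. The next at a gene lay inside Cps1, the carbamoyl phosphate synthetase of the urea cycle, at chr1:67181323-67181432, with folds of 7.95 and 12.1. One at chr6:127502659-127502734 lay inside Parp11, an ADP-ribosyltransferase, with folds of 7.48 and 8.73. All 3 had a peak in at least 1 Aire-deficient library of the same series, and the regions on chromosome 12 and in Cps1 also in a wild type of another comparison. The highest-ranked lost regions included chr2:98663812-98663901, with folds of 1.86 and 1.95 in wild types, 1032184 bp from the nearest gene end, of Lrrc4c. Another lay inside Trim50, a ubiquitin ligase gene, at chr5:135357722-135357823, with folds of 5.90 and 6.67 in wild types. A gained and a lost region lay close together on chromosome 9, at chr9:3005855-3005959 and chr9:3030152-3030262. These and the region on chromosome 2 fall in stretches of repeats that mouse ATAC-seq work commonly leaves out, and no such filter was applied here.

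A gene call does not always rest on a gained or lost region. The strongest peaks at a gene in the 2 libraries of a genotype could lie at different places. They overlapped at 63 of the 70 genes gained with both lengths and at 42 of the 57 lost. A peak of the other genotype could also overlap the called peak and still end outside the 1 kb window. At 13 of the 70 genes gained with both lengths a wild-type peak overlapped the called heterozygote peak in this way, and at 8 of the 57 lost genes a heterozygote peak overlapped the called wild-type peak. Zp3, an oocyte coat gene counted among AIRE-induced antigens, was one of these, with heterozygote folds of 6.88 and 5.54. Adcy4, an adenylate cyclase, had folds of 9.38 and 8.40 and was another, as were Robo3, an axon guidance receptor, and Ptbp2, a neuronal splicing regulator. Among lost genes Gm44064 had wild-type folds of 9.57 and 13.2, the highest of the 57, and a heterozygote peak overlapped there too. The genes described next were therefore those whose window held a region that was itself gained or lost with both lengths. This condition was added after the values were seen, and it left 54 gained and 39 lost genes.

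The 54 genes with a gained region were led by Olfr90, Rgr, D830030K20Rik, Ppp2r2c and Lmx1b. The folds of the 54 ran from 3.25 to 6.49 in heterozygote 1 and from 3.40 to 6.71 in heterozygote 2, with medians of 4.11 and 4.28, and none had a wild-type peak in the region. Olfr90, an olfactory receptor gene, had the highest rank, with folds of 6.49 and 6.71 at chr17:37084814-37084896. Rgr, which encodes an opsin of the retinal pigment epithelium, had folds of 4.95 and 5.92 at chr14:37034557-37034676. Both regions lay outside the promoter window, 1340 bp (Olfr90) and 14338 bp (Rgr) from the nearest annotated start. The nearest wild-type peaks were 1105 and 1039 bp away. Ppp2r2c, a brain regulatory subunit of protein phosphatase 2A, had folds of 5.58 and 6.06. Lmx1b, a homeodomain factor of limb and kidney development, had folds of 6.09 and 4.78. The regions at Ppp2r2c and Lmx1b lay 86910 and 81093 bp from the nearest annotated start, near the other gene end. The 2 heterozygotes ranked these genes differently, with Rgr above Lmx1b in heterozygote 2 and below it in heterozygote 1.

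Receptor genes were among the 15 highest ranked. Chrna9, a subunit of the nicotinic receptor of cochlear hair cells, had folds of 4.40 and 4.59 at chr5:65934001-65934181, 32943 bp from its start. This region had peaks in both Aire-deficient libraries and in neither of their wild types. Ccr1l1, a gene of the chemokine receptor family, had folds of 6.18 and 4.65 at a region 329 bp from its start. Btn1a1, the butyrophilin of milk fat, and its relative Btnl6 had folds of 4.53 and 4.31 and of 4.99 and 4.76. Also among the 15 were D830030K20Rik, Ddi1, Ankrd63, Pramel13, 1700102P08Rik and Gm1070, with folds between 4.12 and 6.46.

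Lower-ranked members of the 54, named after their values were seen, included Atp4b, Cyp8b1, Rfx6 and Crisp1. Atp4b, the beta subunit of the gastric proton pump, had folds of 4.14 and 4.21. Cyp8b1, the sterol 12-alpha-hydroxylase of bile acid synthesis, had folds of 3.69 and 3.65. Rfx6, a transcription factor of pancreatic islets, had folds of 3.66 and 3.77. All 3 were called in both heterozygotes, although their peaks stood in the lower part of each list. The region at the start of Crisp1, at chr17:40319180-40319333, had folds of 4.80 and 4.30, and the nearest wild-type peak was 444469 bp away. Csta2, a cystatin-family gene, was also far from any wild-type peak, at 123336 bp, with folds of 3.59 and 5.54. Neither the region at Crisp1 nor that at Clec2e, a C-type lectin gene, was called in any of the 8 other libraries. Marco, a macrophage scavenger receptor, and Gpr55, a lipid receptor, had folds of 5.04 and 3.99 and of 4.50 and 4.05. The region at Gpr55 lay 27449 bp from the nearest annotated start. Dcc, a netrin receptor, had folds of 3.96 and 4.21.

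The 39 genes with a lost region included the transcription factors Foxc2, Foxe3, Msx2 and Hoxb3. The 39 rested on 38 regions, since Draxin and Mad2l2 share 1, and their folds ran from 2.74 to 4.35 in wild type 1 and from 2.97 to 6.17 in wild type 2. Heterozygotes had no peak in any of these regions. At Foxc2, a forkhead factor of mesenchyme and lymphatic vessels, wild-type folds were 3.97 and 4.84, at chr8:121116024-121116136. Foxe3, a forkhead factor of the lens, had wild-type folds of 3.87 and 4.55 at chr4:114925408-114925524. Msx2, a homeodomain factor of skin and bone, had 3.71 and 4.19 in wild types at its start. Lypd3 had 4.15 and 6.17 in wild types at a region 7 bp from its start, the highest single fold of the 39. Its wild types differed more from each other than those of Foxc2, Foxe3 and Msx2.

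Some of the other lost genes encode secreted, surface or matrix proteins, while others, such as Mad2l2 and Hoxb3, do not. The genes named here are a selection, and a shared function was not tested. Cxcl14, a chemokine of epithelia, had wild-type folds of 4.04 and 3.52 at its start. Thy1, a surface glycoprotein of T cells and neurons, had 3.56 and 4.09 in wild types. The 2 matrix genes Col5a2 and Lamb1 had 3.33 and 3.78 and 3.79 and 3.45. Neither region was called in any of the 8 other libraries. Igfbp5 had 3.56 and 3.94 in wild types, and the peak shared by Draxin and the DNA repair gene Mad2l2 had 4.35 and 4.11 there. Hoxb3, a segment identity gene, had 3.27 and 3.47, and Chrm3, a muscarinic receptor gene, 3.27 and 3.84. Lost regions lay within 1 kb of an annotated start at 24 of the 30 genes with a RefSeq start, and gained regions at 23 of 42.

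**Figure D4:**
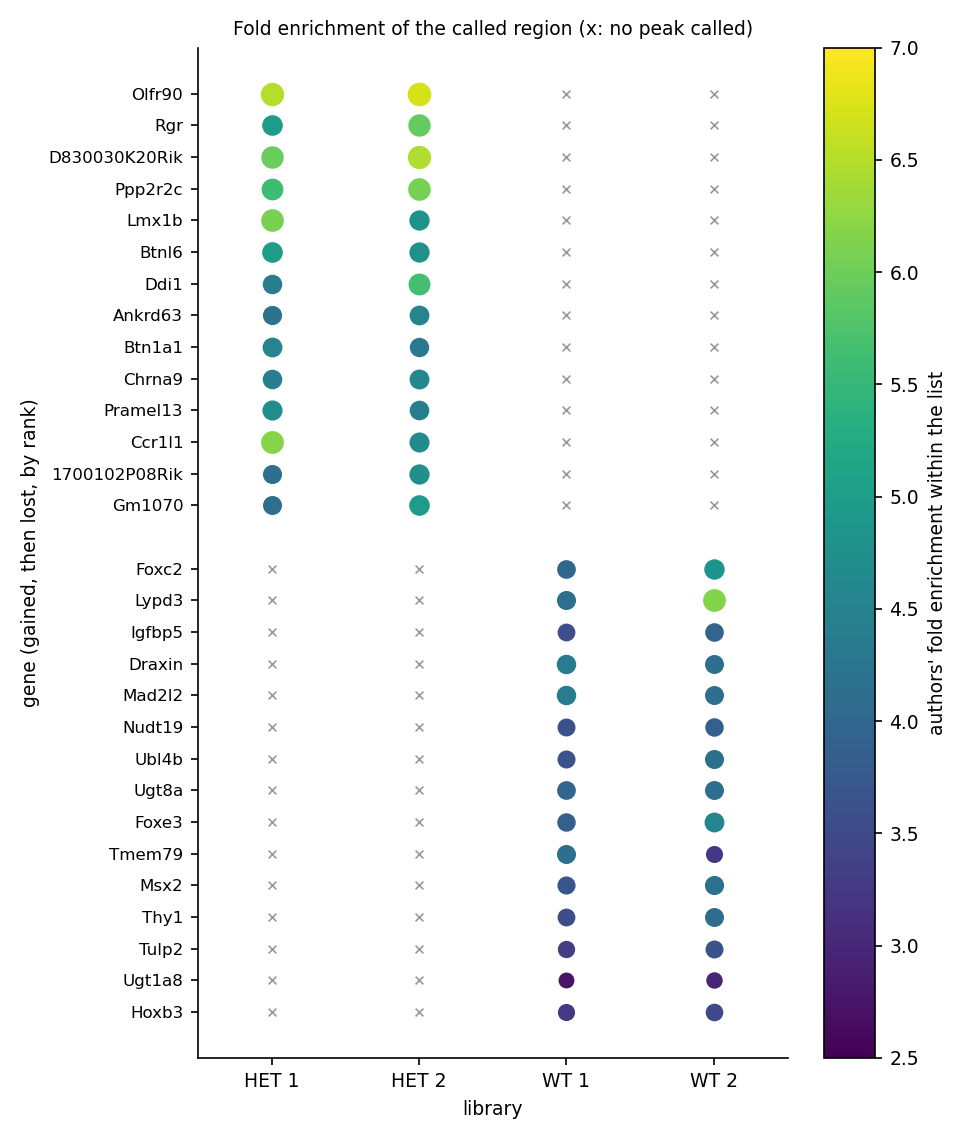
Fold enrichment given by the authors' peak caller at the called region, for 14 of the 15 gained and then the 15 lost genes of highest rank, in each heterozygote (HET) and wild-type (WT) library; circle size and colour give the fold and a cross means that no peak was called. Gained genes reach 6.71 (Olfr90) and lost genes 6.17 (Lypd3), and no region has a peak in the other genotype.

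Most gene groups had few or no called members. Among 22 autosomal AIRE-induced antigens, 1 was gained with both lengths, Zp3, at the window edge described above. Of 21 retinal antigens Rgr was gained and 11 had no peak in any library. Of 20 islet antigens and regulators, 2 were gained with all peaks, and with equal lengths none was gained and G6pc2, an islet phosphatase gene, was lost. The 2 were Ptprn, an islet autoantigen, with folds of 4.06 and 3.37, and Pax6, an eye and islet factor, with folds of 3.31 and 3.53. G6pc2 had weak wild-type peaks, with folds of 3.15 and 3.33, and a peak in the full list of heterozygote 1, with a fold of 2.96. No striated muscle gene of 25, liver plasma protein gene of 23 or Fezf2-dependent antigen of 11 was called in either direction with all peaks. Across all genes 0.895% were gained and 0.29% lost with all peaks. In lists this short 1 gene exceeds those shares, so nothing particular to a list was read from them.

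Larger families were similar, counted by gene calls that need no gained or lost region. Of 1100 olfactory receptor genes 4 were gained (0.364%) and none was lost with all peaks, and 1059 had no peak in any library. Of 68 axon guidance genes 3 were gained with all peaks, Dcc, Plxnc1 and Robo3, and Draxin was lost. Neither Plxnc1 nor Robo3 held a gained region, and the 2 heterozygote peaks at Plxnc1 did not overlap. Of 41 forkhead genes none was gained, and Foxc2 and Foxe3 were lost with both lengths, as were 0.276% of all genes. Of 42 collagen genes Col2a1 was gained with all peaks, with folds of 3.25 and 3.41, and Col5a2 and Col9a3 were lost. At Col9a3 the 2 wild-type peaks did not overlap and no region was lost. Of 99 cytochromes P450 Cyp1a1, Cyp26a1 and Cyp8b1 were gained with all peaks, and Cyp8b1 with both lengths. Of 39 Hox genes Hoxd4 was gained and Hoxb3 lost, although the 2 heterozygote peaks at Hoxd4 did not overlap. Equal lengths changed the keratins, of which 3 of 49 were then lost, Krt16, Krt19 and Krt80, where 0.929% of all genes were lost. Krt16 nonetheless had a heterozygote peak in both full lists, with folds of 3.12 and 3.61.

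The Aire gene itself was accessible in both genotypes. The region across its gene end, chr10:78043452-78043778, had folds of 7.48 and 7.85 in heterozygotes and of 7.72 and 6.83 in wild types. The region beyond that end, chr10:78046202-78047024, had 4.11 and 4.33 in heterozygotes and 3.82 and 3.89 in wild types. Regions at chr10:78018652-78019038 and chr10:78028165-78028426 also had peaks in all 4 libraries. Within 15 kb on either side of Aire no region was gained with both lengths, and one, at chr10:78054728-78055094, had peaks in the 2 wild types alone, with folds of 3.32 and 4.00. A missense allele removes no sequence that peaks could show, so these values do not check the genotype labels.

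Regions gained in C442G heterozygotes were looked for in the 8 other libraries of the series. Of the 4654 regions gained with both lengths, 38.1% and 51.4% had a peak in the 2 Aire-deficient libraries, whereas 93 and 101 of the 4654 had one in their wild types. In C313Y heterozygotes, which carry another AIRE missense change, 23.6% and 12.4% had a peak, and 11.1% and 8.40% in their wild types. Peaks in both Aire-deficient libraries and in neither of their wild types were present at 1167 of the regions (25.1%), a share close to the 24.6% among regions shared by all 4 C442G-set libraries. No peak in any of the 8 was called at 1247 (26.8%) of the gained regions, against 3.47% of the shared ones. The libraries also differed in list length, with 84037 and 93198 autosomal peaks in the Aire-deficient lists, 33933 and 33502 in their wild types, 74167 and 56173 in C313Y heterozygotes and 71554 and 54613 in theirs. Shares were higher in longer lists, although not in every pair, since the shorter C313Y heterozygote list (56173 peaks) held 12.4% of the regions and the longer wild-type list (71554 peaks) 11.1%. The part of list length in these shares was not tested.

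Lost regions gave another order. Of the 1408 regions lost with both lengths, 194 and 202 had a peak in the Aire-deficient libraries, and 28 and 21 in their wild types. In C313Y heterozygotes 248 and 134 had one, and 254 and 163 in their wild types. The Aire-deficient lists, the longest of the 8, held 13.8% and 14.3% of the lost regions, beside the 38.1% and 51.4% of the gained ones. Peaks at the lost regions also ranked lower, with median percentiles of 23.5 and 23.1 in the wild-type lists. At the gained regions these were 44.0 and 40.8 in the heterozygote lists. Requiring both list lengths widened this gap, because the cut removed weak peaks mostly from the heterozygote lists. With all peaks the medians were 29.8 and 27.3 at gained regions in heterozygotes, and 22.2 and 21.3 at lost regions in wild types. The part of rank in the shares was not tested. No peak in any of the 8 was called at 706 of the lost regions. Among the genes with a called region, the gained region was called in both Aire-deficient libraries at 22 of 54 genes and the lost region at 4 of 39. The matching share over all gained or lost regions is not given here, so nothing particular to these genes was read from the counts. A peak in at least 1 of the 4 other wild types was present at 21 of the 54 and at 15 of the 39. Over all regions called with both lengths, 19.9% of the gained and 26.2% of the lost had such a peak.

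**Figure D5:**
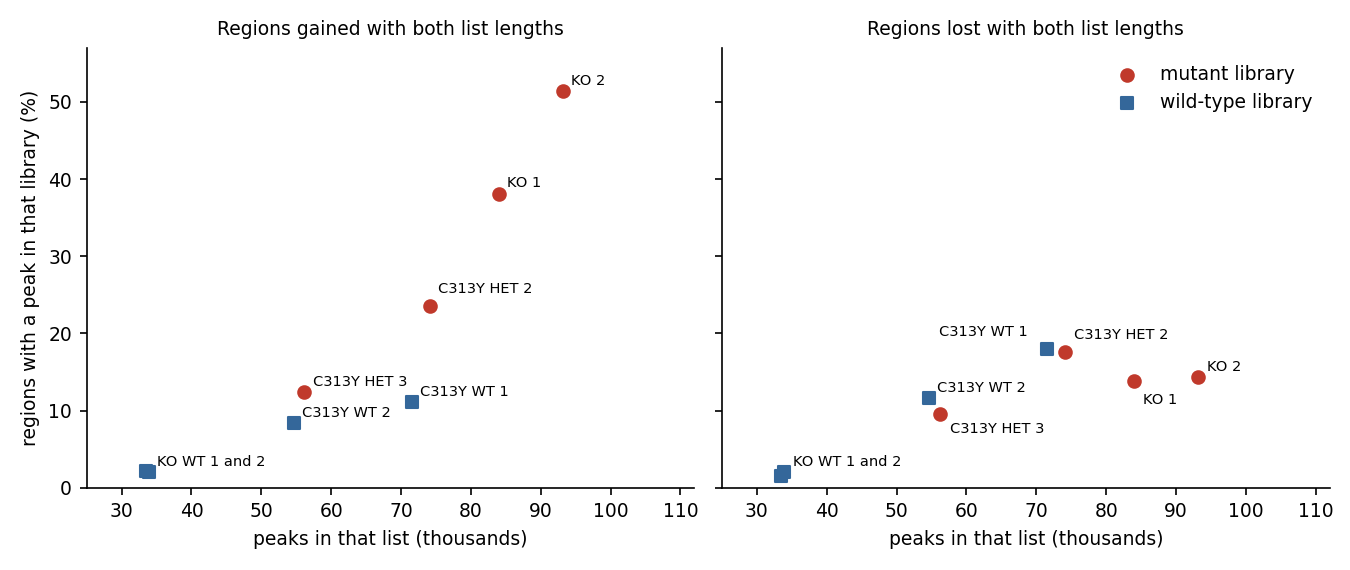
Share of the regions gained (left) and lost (right) in C442G heterozygotes with both list lengths that had a peak in each of the 8 other libraries (y, %), against the number of autosomal peaks in that library's list (x, in units of 1000 peaks); circles are mutant and squares wild-type libraries. For gained regions the share is highest in the 2 Aire-deficient (KO) libraries, at 38.1% and 51.4%, which also have the longest lists.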

How the data were processed

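ATAC-seq peak lists of 2 C442G heterozygote and 2 wild-type libraries were used, with those of the other 8 libraries for presence alone. Per the submitters' processing notes, Bowtie2, MACS2, Picard, cutadapt and the build mm10 were used; their versions and order, read shifting, duplicates and control libraries are not stated there. The authors deposited 1 list per library, so peaks were called per sample. Each broad peak has, as the authors deposited it, a score, a fold enrichment (ratio), a −log10 p and a −log10 q. The deposited score was 10 times −log10 q within 1, and the lowest −log10 q lay just above 1. No read counts were used, so the depth is unknown and the number of peaks is its only trace.

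Wild types were matched to heterozygotes by the form of the titles. Gene positions and promoters came from RefSeq (GRCm38.p6), with 20665 autosomal protein-coding genes and no strand in the gene table. Of 70 gained and 57 lost genes, 55 and 42 had a promoter entry. Group values were compared by exact two-sided permutation over 6 assignments. Genes were ranked by the lower of the 2 libraries' percentiles by −log10 p, and the 15 gained and 15 lost of highest rank, the 5 regions and 5 genes with most called regions and up to 4 members per list were eligible to be named. The members and the 44 lists were chosen with earlier results of these data known; other genes with a called region, such as Atp4b, Crisp1 and Thy1, were named after their values were seen. One gained gene and its list are not reported here. Same-numbered libraries did not deviate together. Region and gene counting was tested on simulated lists. Python 3.11.15, numpy 2.4.6, pandas 2.3.3, scipy 1.17.1 and matplotlib 3.10.9 were used. Alternatives were other list lengths, thresholds, gene windows, overlaps, the X chromosome, the replicate block and leaving out each library.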

Additional observations from a re-analysis of the deposited data

Results flagged for a closer look

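The Y chromosome was outside the comparisons of the report, and peaks there were more numerous in heterozygotes than in wild types. The heterozygote lists held 27 and 23 peaks on chromosome Y, and the wild-type lists 4 and 4. Sex is not given by the labels, and its part in the autosomal differences was not tested.

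Of 245 genes called with all peaks, 14 were called in the opposite direction in at least 1 of the other 2 AIRE mutant comparisons. The same direction was called for 39. In the Aire-deficient comparison 7 were opposite and 37 the same, whereas in the C313Y comparison 7 were opposite and 2 the same. The shares of all genes called in those comparisons are not given here, so agreement was not read from the counts. Among regions shared by all C442G-set libraries, 24.6% had peaks in both Aire-deficient libraries and neither of their wild types. The reverse held for 0.075%. The wild-type lists of the Aire-deficient comparison were short, at 33933 and 33502 peaks beside 84037 and 93198 in the Aire-deficient lists. At 10 named genes among the 14 the call went in opposite directions in 2 of the AIRE mutant comparisons, by the presence of peaks in all libraries of one genotype and none of the other. The difference between the comparisons was not tested. These gene calls use any peak near a gene end, so opposite calls need not rest on the same site. D830030K20Rik, Gm3558 and Dcc were gained in C442G heterozygotes, while 0 C313Y heterozygotes and both of their wild types had a peak. The region gained at D830030K20Rik had no peak in either of those wild types. At Gm3558 and Gm44064 a peak of the other C442G-set genotype overlapped the called peak. Lypd3 and Scx, a tendon transcription factor gene, were lost in C442G heterozygotes, while 2 of 2 C313Y heterozygotes and neither of their wild types had a peak. Pik3ap1, Bmp8b, Rnf223, Gm44064 and Thy1 were lost in C442G heterozygotes, while 2 of 2 Aire-deficient libraries and neither of their wild types had a peak. D830030K20Rik and Gm3558 belong to groups of near-identical genes, for which the assignment of reads is uncertain.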

How the results depend on the processing

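With all peaks gained regions and genes outnumbered lost ones under every alternative run, and with the strongest 90000 peaks lost genes outnumbered gained ones under every alternative run. For regions with the strongest 90000, gained outnumbered lost except when presence in at least 1 library sufficed (22054 gained, 25150 lost), without wild type 1 (9098 and 13822) and without wild type 2 (9925 and 15318). A −log10 q of at least 3 gave 7208 gained and 665 lost regions and 284 gained genes. Presence in at least 1 library, with absence from the other genotype, gave 46694 gained and 18438 lost regions and 669 gained and 380 lost genes with all peaks, and 342 gained and 711 lost genes with the strongest 90000. The strongest 60000 peaks gave 2785 gained and 2431 lost regions. A peak over at least 50% of a region gave 7772 gained regions with the strongest 90000, annotated starts alone gave 53 gained genes there, and the added condition of a called region gave 39 lost genes with all peaks. Leaving out each library gave 17977 to 32365 gained and 3510 to 10746 lost regions, and 367 to 513 gained and 140 to 236 lost genes. With the strongest 90000 these were 9098 to 13692 and 6939 to 15318 regions, and 198 to 261 and 336 to 473 genes; a single library then stands for its genotype, which makes more calls. The log2 difference in median width ran from -0.0082 to 0.042 and was reversed without wild type 2. That in peak number ran from 0.29 to 0.38, that in covered length from 0.29 to 0.37 and that in the share near gene ends from -2.87 to -2.36 points.

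With the replicate block, peak number differed by 0.34 on the log2 scale (exact paired permutation p = 0.5) and the share near gene ends by -2.62 points (p = 0.5, exact permutation). Same-numbered libraries shared only a number, since their deviations over 63849 shared regions correlated at 0.017. Depth is unknown and list length moved with genotype, so calls near the threshold of a list are the least certain.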

Other observations

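The genes with most regions gained with both list lengths were long. Ccser1, a gene of 1203 kb on chromosome 6, held 13 gained and 1 lost of its 75 regions with all peaks, with 57 and 54 peaks in heterozygotes and 24 and 37 in wild types. Ptprn2, an islet autoantigen related to Ptprn, held 10 gained and no lost of 60, with 44 and 39 peaks in heterozygotes and 23 and 28 in wild types. In all, 2167 genes held at least 1 region gained with both list lengths and 139 held 3 or more, while 756 held a lost one and 8 held 3 or more. Kalrn held 4 lost and no gained of 71, although heterozygotes had 43 and 45 peaks there and wild types 42 and 37.

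A pair of gene clusters was picked after the values were seen, and their shares were not tested. The protocadherin clusters on chromosome 18 hold 57 genes for neuronal adhesion proteins, and 6 of their 52 regions (11.5%) were gained and none lost, beside 7.08% gained and 0.995% lost over all regions. They had 39 and 41 peaks in heterozygotes and 24 and 28 in wild types. Around the Speer4 genes on chromosome 5, near-identical copies known from testis, 18 of 137 regions (13.1%) were lost and 5 gained. Peaks there numbered 70 and 36 in heterozygotes and 98 and 88 in wild types, so the heterozygotes differed from each other more than the wild types did, and the assignment of reads among the copies is uncertain. The bin of chromosome 5 from 15 to 16 Mb held 15 lost of 119 regions, the most of 2401 bins of 1 Mb.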
